A study of Bos taurus with 48 samples.

Results

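Belmont Red cattle, a composite beef breed of tropical Australia, were fed either for weight loss or for growth, and longissimus dorsi muscle was sampled by biopsy at 3 times. The paper describes these as 3 adult time points of an experiment of nutritional deprivation and re-alimentation. The comparison described here is that of the weight loss diet (restricted cattle) with the growth diet (growth cattle) at time 1. Its members were chosen by the sample labels: 4 of the 48 arrays of the series are labelled diet time 1. They carry 3 restricted animals (RL24, RL27 and RL671) and 4 growth animals (RG157, RG166, RG208 and RG604), of 35 animal codes in the whole series. Each array compares a restricted animal, labelled with one dye, with a growth animal labelled with the other, and RL24 was on 2 of the 4 arrays and entered as the mean of its 2 channels. Both groups share the breed, the tissue, the slide and the scan session. They differ by diet alone in the labels, which give neither the length of feeding before time 1 nor age, sex or feed intake. The codes were read as animals, and the biopsy mixes fibres with the connective tissue, vessels and fat around them.

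Skeletal muscle is the main protein store of the body, and the loss of weight draws on it. Muscle fibres are built of thick filaments of myosin and thin filaments of actin, each in fast and slow versions. Fast fibres rely more on glycolysis and glycogen, slow fibres more on mitochondria. Around the fibres lies a matrix of collagens and proteoglycans made mainly by fibroblasts. Protein is broken down in the fibre mainly by the ubiquitin-proteasome system, for which FBXO32 and TRIM63 are the muscle ligases best known from wasting.

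At time 1 the RNA of 8 of 13 fast fibre genes, 5 of 8 fibrillar collagens and 15 of 22 glycolysis genes was lower in the restricted cattle, and that of 17 of 37 proteasome genes was higher. ACTA1, the skeletal alpha-actin of the thin filament, was 66.2-fold lower. COL1A1, a chain of type I collagen, was 23.8-fold lower, and CDKN1A, an inhibitor of cyclin-dependent kinases, was 5.81-fold higher. These differences come from limma on 1 value per animal, with the dye as a term of the fit and Benjamini-Hochberg adjustment over all 14708 genes tested. At an adjusted p of 0.05, 939 genes were higher and 979 lower in the restricted cattle, which is 6.38% and 6.66% of the genes tested. All 3 restricted animals were above all 4 growth animals for 2659 genes (18.1%) and below them for 2632 genes (17.9%). The median log2 difference over all genes was 0.00. The called genes were fewer with an animal left out, down to 172 higher and 268 lower without RG157 and 186 and 288 without RG604, the fewest of the 7.

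Levels are given as log2 intensity after normalization and removal of the dye term, and differences as log2 of restricted over growth. They are relative to the other RNA on the arrays. The normalization gave every array the same distribution of average levels. Differences between the diets are read, at a time or in the change from one time to another, and the rise or fall of one diet group alone is not. In these bulk samples, fewer cells of a type and less RNA per cell cannot be told apart. The share of spots with a signal clearly over background was 65.1% to 67.7% in the restricted channels and 64.3% to 73.6% in the growth channels. No spot was saturated on these arrays. The deviations of the 2 channels of an array correlated over genes, with r of 0.34 to 0.57 on the 4 arrays, whereas the 2 channels of RL24, on different arrays, gave 0.78. With the array as a block, the within-array log ratios gave 1919 genes higher and 2104 lower, but these count the 2 arrays of RL24 as separate. With each channel centred on its median in place of loess normalization, 1634 genes were higher and 581 lower, so that the split of the calls moved from 49.0% to 73.8% higher. Of the 172 genes called and named by the rules of this report, 0 changed direction under any alternative tried.

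The largest fall of all genes tested was that of a contractile gene, ACTA1. The ACTA1 level was 11.36 in RL24, 12.02 in RL27 and 12.19 in RL671. In the growth cattle it was 17.65 in RG157, 18.15 in RG166, 18.15 in RG208 and 17.66 in RG604. The groups lay far apart and no animal of either was near the other. The log2 difference was -6.05 ± 0.25 (SE; limma adjusted p = 0.00123), and it stayed between -6.21 and -5.56 whichever animal was left out or setting changed. MYL3, the ventricular and slow essential light chain of myosin, had levels of 11.73, 11.46 and 12.19 in RL24, RL27 and RL671, against 14.97, 15.44, 16.18 and 16.52 in RG157, RG166, RG208 and RG604. Its difference was -3.98 ± 0.41 (adjusted p = 0.00686, limma).

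**Figure D1:**
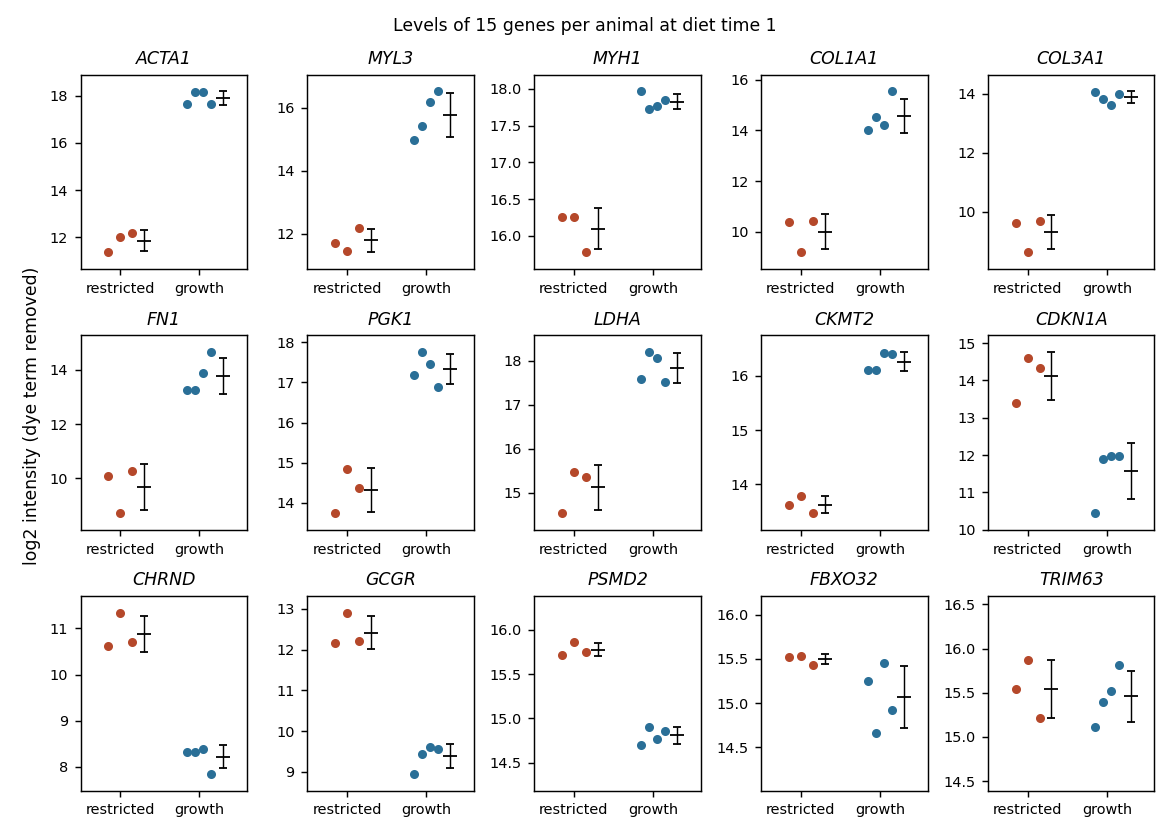
Levels of 15 genes in each animal at diet time 1, as log2 intensity with the dye term removed; points are animals (3 restricted, 4 growth), and the bar beside them is the mean ± SD. ACTA1 lay between 11.36 and 12.19 in restricted and between 17.65 and 18.15 in growth cattle, whereas the groups overlapped for FBXO32 and TRIM63.

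Of the 13 genes of the fast fibre list that were tested, 8 were lower and 0 higher, with a median log2 difference of -1.22. MYL1, the fast essential light chain, was 4.09-fold lower and MYBPC2, fast myosin binding protein C, 3.67-fold lower. TPM1, an alpha-tropomyosin, was 3.41-fold lower and TNNT3, the fast troponin T, 2.93-fold lower. With each animal left out in turn, the number lower was 5 to 8 of the 13, with the fewest without RG157. MYH1, the heavy chain of fast type IIX fibres, had levels of 16.26, 16.26 and 15.78 in RL24, RL27 and RL671 and of 17.96, 17.72, 17.77 and 17.84 in RG157, RG166, RG208 and RG604, a difference of -1.73 ± 0.16 (limma adjusted p = 0.00601). Of the slow fibre list, 5 of 14 were lower and 0 higher, with a median of -0.62, which was -0.36 with channels centred on their medians and between -0.76 and -0.31 over all alternatives. With an animal left out 3 to 4 were lower. The slow heavy chain MYH7 was 16.52, 16.45 and 16.87 in RL24, RL27 and RL671 against 17.89, 18.14, 17.80 and 17.87 in the growth cattle in the same order, a difference of -1.31 ± 0.15 (limma adjusted p = 0.0081). CASQ2, a calsequestrin, was lower by a log2 difference of -1.53, MYBPC1 by -1.33 and the slow troponin TNNT1 by -0.99. Genes of both fibre types were thus lower, and whether the fast genes differed more than the slow ones was not tested.

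The fast myosin heavy chains are near-identical paralogs, so the letters that the probes read matter for their values. Those of a probe for MYH1 and of the probe for MYH4, the heavy chain of type IIB fibres, are shown in lower case as the files give them. MYH4 was chosen after its value was seen.
MYH1 probe: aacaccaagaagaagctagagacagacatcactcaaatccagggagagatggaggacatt
MYH4 probe: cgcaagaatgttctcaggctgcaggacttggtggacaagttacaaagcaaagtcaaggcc
The MYH1 probe printed here gave a log2 difference of -1.63 ± 0.10, and a further probe of MYH1, not printed, gave -1.83 ± 0.33. The MYH4 probe gave -1.19 ± 0.20 (limma adjusted p = 0.0183). How far each probe reads its paralogs was not tested, and MYH2, the heavy chain of type IIA fibres, was not among the genes tested.

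Genes of the thin filament, the Z disc and the giant proteins did not move one way. Of 22 tested, 6 were lower (27.3%) and 2 higher (9.09%), against 6.66% and 6.38% of all genes. Leaving out an animal gave 3 to 4 lower and 1 to 3 higher. Besides ACTA1, TPM2 (beta-tropomyosin, log2 difference -1.42), LDB3 (a Z disc protein, -1.37) and ACTN2 (alpha-actinin, -0.85) were lower. DES, which encodes the intermediate filament desmin, was 2.48-fold higher, and KLHL40, a Kelch protein that stabilises thin filament proteins, 2.52-fold higher. The median of this list was -0.07 and turned to 0.10 with channels centred on their medians. Of 8 genes of fetal and regenerating muscle, 4 were lower and 0 higher, and 1 to 4 were lower with an animal left out. The 4 were DLK1 (-1.56), the cardiac actin ACTC1 (-1.49), the fetal acetylcholine receptor subunit CHRNG (-0.96) and the embryonic light chain MYL4 (-0.69).

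The skeletal muscle markers identified the tissue in every animal: all 9 markers tested were well above background, with summed levels of 19.26 to 19.45 in restricted and 20.07 to 20.49 in growth cattle. Of these 9, 4 were lower (ACTA1, MB, CKM and ACTN2) and DES was higher. MB, myoglobin, was 5.43-fold lower.

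The matrix genes included several of the largest falls. Of 8 fibrillar collagens tested, 5 were lower and 0 higher, with a median log2 difference of -1.88, a 3.68-fold reduction. The COL1A1 level was 10.41 in RL24, 9.20 in RL27 and 10.41 in RL671, against 14.02, 14.53, 14.22 and 15.54 in RG157, RG166, RG208 and RG604. The groups were separated by more than the spread within either, with a difference of -4.57 ± 0.47 (SE; limma adjusted p = 0.00686). COL3A1, which forms type III collagen, was 9.63, 8.64 and 9.68 in RL24, RL27 and RL671 against 14.08, 13.81, 13.63 and 14.00 in the growth cattle in the same order, a difference of -4.56 ± 0.28. RL27 was the lowest for COL1A1, COL3A1 and COL1A2, the partner chain of type I collagen (-4.18 ± 0.56). COL5A2 (-1.87) and COL5A1 (-0.99), chains of type V collagen, differed less. With an animal left out 3 to 5 of the 8 were called lower, with the fewest without RG157 or RG604.

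Of 22 genes for the folding and crosslinking of collagen, 10 were lower and 1 higher, with a median of -0.68. SERPINH1, the collagen chaperone, was 4.66-fold lower, SPARC 4.48-fold, the lysyl oxidase LOXL2 3.82-fold, the procollagen C-proteinase enhancer PCOLCE 3.51-fold and the prolyl isomerase FKBP10 2.98-fold. The only member higher was P4HB, the beta subunit of prolyl 4-hydroxylase, which is also protein disulfide isomerase (log2 difference 1.29; named after its value was seen). Of 17 basement membrane genes, 8 were lower and 0 higher, and all 17 differences were negative. COL6A3 (-1.84), the laminin chain LAMA4 (-1.65), COL4A2 (-1.64), NID2 (-1.57) and COL15A1 (-1.49) were the largest of the 8. With an animal left out 3 to 9 of the folding and crosslinking genes and 1 to 8 of the basement membrane genes were lower.

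Of 28 proteoglycans and matrix glycoproteins, 11 were lower and 0 higher, with a median of -1.22, and 1 to 9 were lower with an animal left out. FN1, fibronectin, was 10.08, 8.73 and 10.29 in RL24, RL27 and RL671 and 13.25, 13.25, 13.87 and 14.64 in RG157, RG166, RG208 and RG604 (difference -4.05 ± 0.50, limma adjusted p = 0.00957). MGP was lower by a log2 difference of -1.75, the proteoglycan LUM by -1.68 and MFAP2, of the elastic microfibrils, by -1.51. POSTN was not well above background in any restricted channel and was in all 4 growth channels. Its fitted log2 difference was -1.69 (limma adjusted p = 0.0481), and its bound in the main processing was 2.89-fold lower. Such a bound sets the mean of the brighter group against the lowest signal that counted as above background on the arrays of the dimmer one. It has no error and no dye term, so it is not a minimum for other settings. Over the alternatives the POSTN difference ranged from -4.09 to -1.17, and it was called in 12 of 23. Of 19 matrix proteases and inhibitors, SERPINF1 (-2.64) and ADAMTS1 (-1.33) were lower, and CTSB, the lysosomal cathepsin B, was higher (0.68). The shares were 10.5% lower and 5.26% higher, against 6.66% and 6.38% of all genes. ADAMTS1 had a difference of -1.46 at time 0 already.

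Among markers of fibroblasts, the cells that make the matrix, those called lower were mostly matrix genes. Of 11 fibroblast markers, 5 were lower and 0 higher (COL6A3, LUM, DPT, VIM and DCN), 4 of them matrix genes themselves. Their summed level was at least 14.14 and at most 15.001 in restricted cattle, and 15.33 to 16.13 in growth cattle. With an animal left out 0 to 3 of the 11 were called, and VIM and DCN in 0 of 7 such fits. The receptors PDGFRA and PDGFRB, which mark the cells rather than their product, had log2 differences of -0.14 and -0.27 and were not called. The part of cell number in the matrix differences was not tested.

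**Figure D2:**
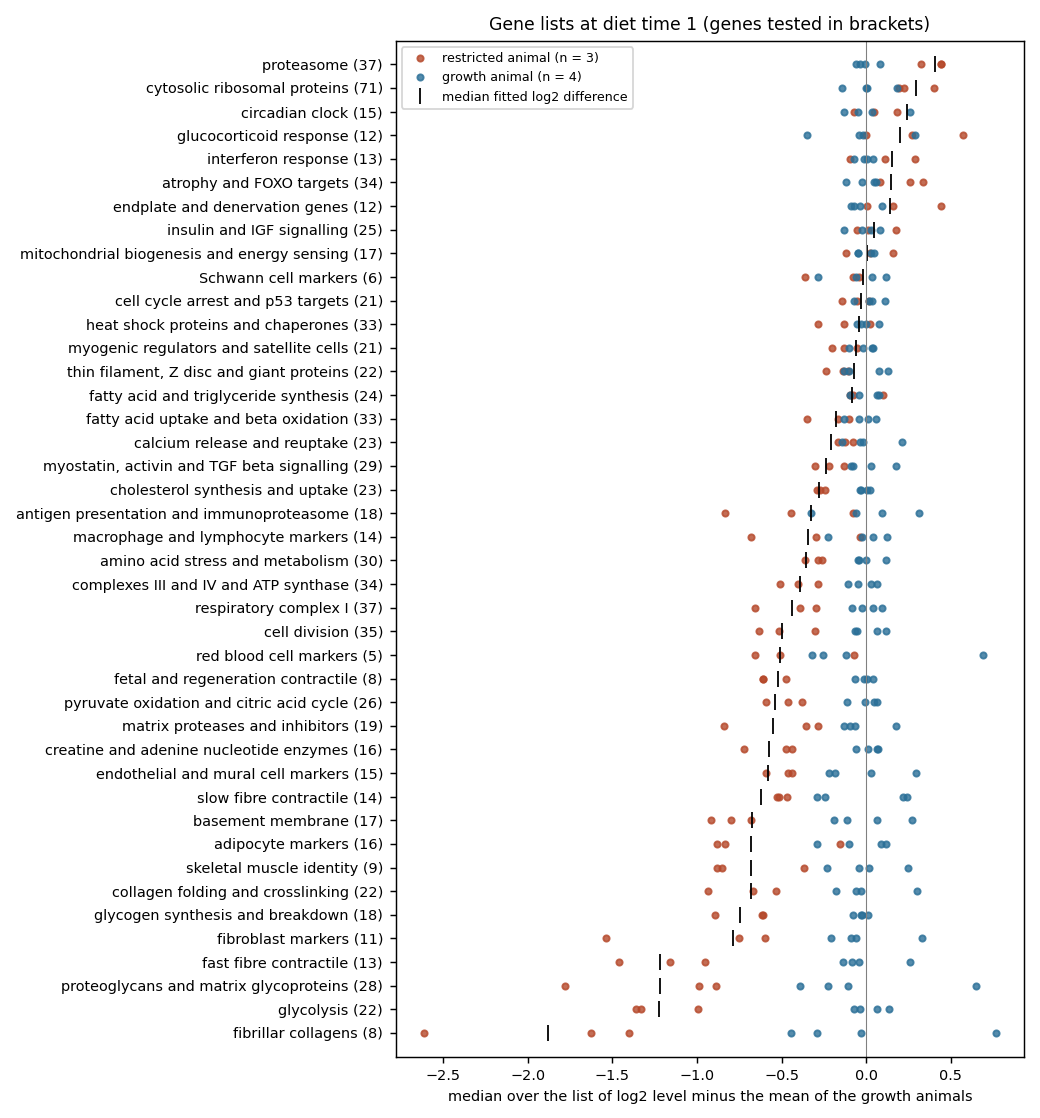
Median of each gene list in each animal at diet time 1, as log2 level minus the mean of the growth animals; the black tick is the median fitted difference, and the number of genes tested stands in brackets. The fibrillar collagen medians lay between -2.61 and -1.40 in the restricted animals and between -0.45 and 0.77 in the growth animals, while the proteasome medians lay between 0.33 and 0.44 and between -0.06 and 0.08.

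Glycolysis had the largest share of members called. Of 22 genes tested, 15 were lower (68.2%, against 6.66% of all genes) and 1 was higher, with a median log2 difference of -1.22. With an animal left out 11 to 14 were lower. PGK1, phosphoglycerate kinase, was 13.75, 14.85 and 14.36 in RL24, RL27 and RL671 against 17.19, 17.75, 17.47 and 16.88 in RG157, RG166, RG208 and RG604, and was 8.02-fold lower. LDHA, lactate dehydrogenase A, was 14.54, 15.48 and 15.37 against 17.58, 18.19, 18.07 and 17.51 in the same animals and was 6.53-fold lower. RL24 was the lowest restricted animal for both. PGAM2, the muscle phosphoglycerate mutase, was 6.87-fold lower, ENO3, the muscle enolase, 5.16-fold and PKM, pyruvate kinase, 4.70-fold. PGAM1 and ENO1, the widely expressed forms of the same mutase and enolase, had log2 differences of 0.03 and 0.02 and were not called. The member higher was SLC2A1, the basal glucose transporter (1.08 ± 0.16), while SLC2A4, the insulin-responsive one, had 0.66 ± 0.30 and was not called. These 4 genes were named after their values were seen.

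**Figure D3:**
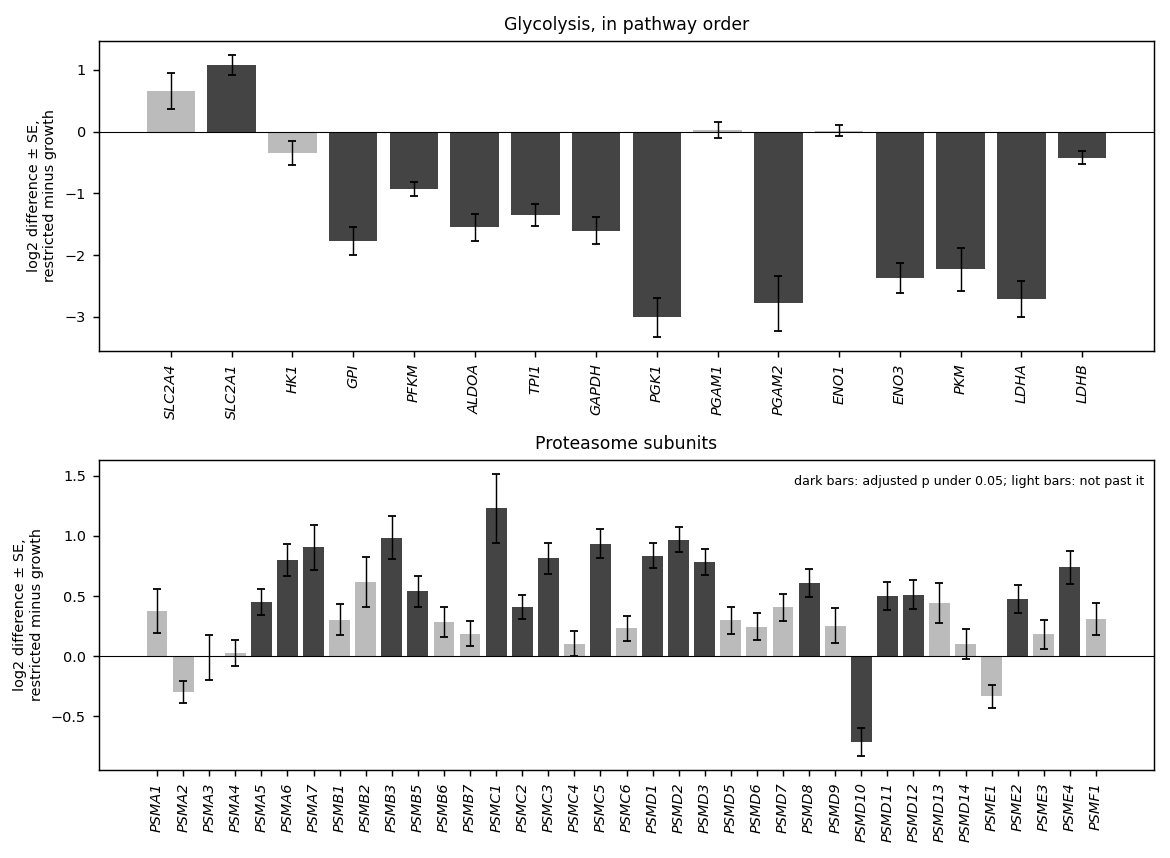
Log2 difference between restricted and growth cattle at diet time 1 with its SE for genes of glycolysis in pathway order (upper panel) and for the proteasome subunits tested (lower panel); dark bars passed an adjusted p of 0.05. PGK1, PGAM2, ENO3, PKM and LDHA lay between -3.00 and -2.23, and PGAM1 and ENO1 at 0.03 and 0.02; 17 subunits were higher and PSMD10 lower.

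Glycogen genes followed. Of 18 tested, 8 were lower and 0 higher, with a median of -0.75, and 4 to 8 were lower with an animal left out. PHKA1 and PHKB, subunits of phosphorylase kinase, were 5.01-fold and 2.57-fold lower. PYGM, the muscle phosphorylase, was 2.31-fold lower, PGM1 2.31-fold and GYG1, on which glycogen chains start, 2.07-fold. Of 16 enzymes and carriers of creatine and adenine nucleotides, 7 were lower (43.8%) and 2 higher (12.5%), against 6.66% and 6.38% of all genes. Leaving out an animal gave 3 to 5 lower. CKMT2, the mitochondrial creatine kinase, was 13.62, 13.78 and 13.47 in RL24, RL27 and RL671 against 16.11, 16.12, 16.42 and 16.41 in RG157, RG166, RG208 and RG604, a difference of -2.64 ± 0.14 (limma adjusted p = 0.00231) with little spread in either group. Adenylate kinase AK1 was lower by a log2 difference of -1.96, CKB by -1.49 and CKM, the cytosolic muscle creatine kinase, by -1.44. AMPD3, an AMP deaminase, was higher by 1.57.

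The mitochondrial lists were lower by less. Of 26 genes of pyruvate oxidation and the citric acid cycle, 8 were lower and 0 higher (median -0.54), among them DLAT of the pyruvate dehydrogenase complex (-1.28), MDH1 (-1.06), IDH3A (-1.06), SUCLA2 (-1.05) and MDH2 (-0.96). Of 37 subunits of respiratory complex I, 11 were lower and 0 higher, and all 37 differences were negative (median -0.44). NDUFS1 (-1.35), NDUFC1 (-1.13) and NDUFB5 (-1.10) differed most. Of 34 subunits of complexes III and IV and of ATP synthase, 11 were lower and 0 higher (median -0.39), led by ATP5MC3 (-1.27), UQCRFS1 (-1.07) and COX5A (-1.002). With an animal left out 1 to 8, 3 to 10 and 4 to 12 members of these lists were lower. Their medians shrank to -0.25, -0.16 and -0.14 with channels centred on their medians, a scaling that also raised the median over all genes to 0.10. The regulators of mitochondrial biogenesis had a median of 0.01, with TFB2M lower (-0.92) and POLG, the mitochondrial DNA polymerase, higher (0.51). Each is 5.88% of its list, close to the shares of all genes (6.66% lower and 6.38% higher).

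Lipid genes were split. Of 33 genes of fatty acid uptake and oxidation, 8 were lower and 0 higher, with a median of -0.18, and 3 to 8 were lower with an animal left out. The uncoupling protein UCP3 was 4.12-fold lower, the fatty acid binding protein FABP3 3.94-fold, the carnitine palmitoyltransferase CPT1A 3.53-fold, ANGPTL4 2.69-fold and ACSL1 2.35-fold. PDK4, which holds pyruvate back from oxidation, was 14.68, 14.27 and 12.15 in RL24, RL27 and RL671 and 15.29, 13.88, 14.99 and 15.53 in the growth cattle, so the groups overlapped (difference -1.22 ± 0.69, limma adjusted p = 0.279). Of 24 genes of fatty acid and triglyceride synthesis, 2 were higher and 2 lower. That is 8.33% each way, close to the 6.38% and 6.66% of all genes. SCD, the stearoyl-CoA desaturase, was 9.25, 9.51 and 9.67 in RL24, RL27 and RL671 against 8.49, 9.01, 8.64 and 8.71 in RG157, RG166, RG208 and RG604 (0.76 ± 0.17, limma adjusted p = 0.0341), but its 3 probes gave 0.04, 1.02 and 1.24. PCK1 was higher (0.75), and the desaturases FADS1 (-1.25) and FADS3 (-0.52) were lower. Of 23 genes of cholesterol synthesis and uptake, 6 were lower (0 to 5 with an animal left out) and 1 higher. The shares were 26.1% lower and 4.35% higher, against 6.66% and 6.38% of all genes. SQLE was 2.27-fold lower and MVD 1.96-fold higher.

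**Figure D4:**
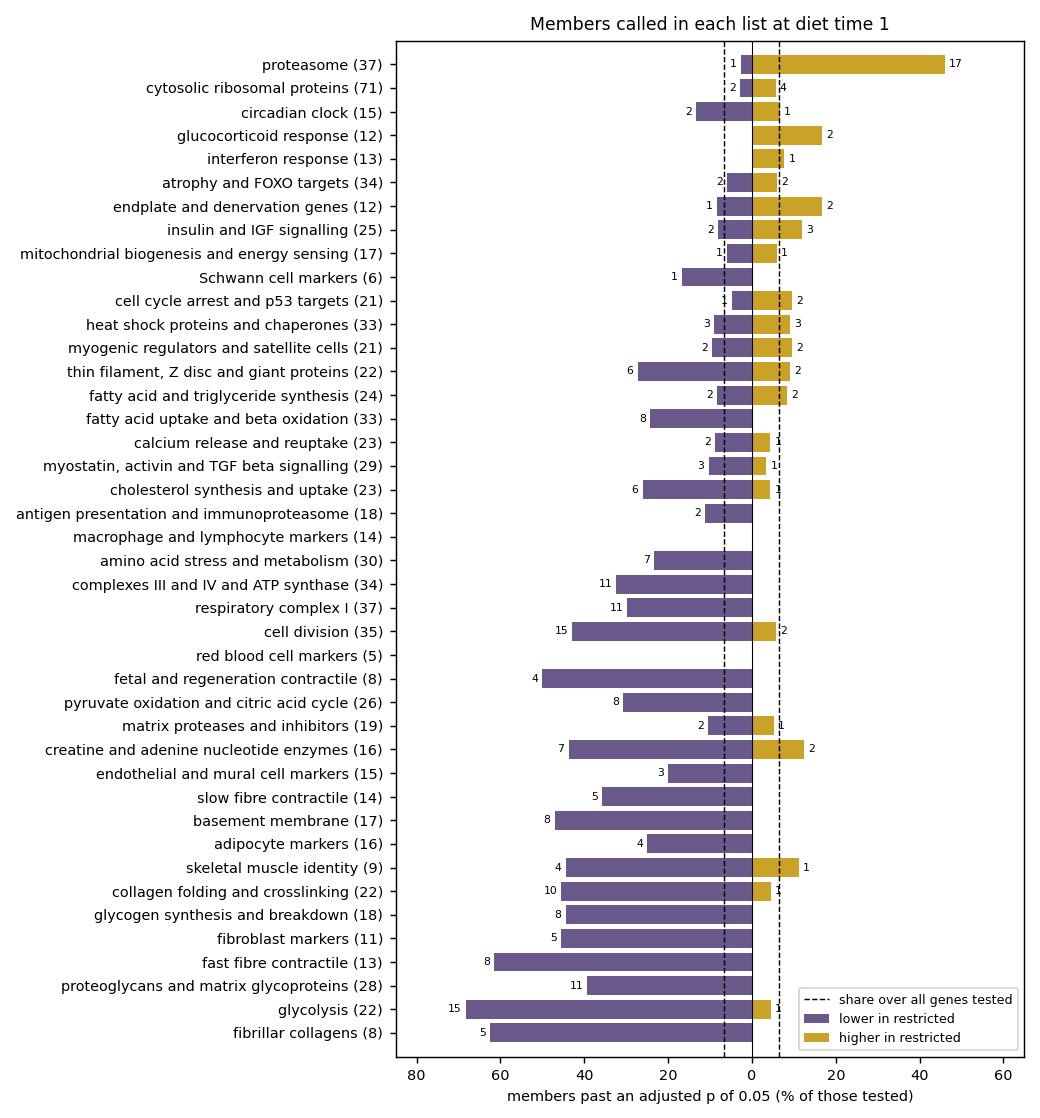
Share of the tested members of each gene list that were lower (left) or higher (right) in restricted cattle at diet time 1 past an adjusted p of 0.05; numbers at the bars are genes, and dashed lines mark 6.66% and 6.38%, the shares over all genes. Glycolysis reached 68.2% lower and the proteasome 45.9% higher.

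The proteasome was the list with the most members higher. Of 37 subunits and regulators tested, 17 were higher (45.9%, against 6.38% of all genes) and 1, PSMD10, was lower, with a median log2 difference of 0.41. All 3 restricted animals were above all growth animals for 27 of the 37, and for 18.1% of all genes. PSMD2, a subunit of the regulatory particle, was 15.72, 15.86 and 15.75 in RL24, RL27 and RL671 against 14.70, 14.91, 14.76 and 14.86 in RG157, RG166, RG208 and RG604 (0.97 ± 0.10, limma adjusted p = 0.00717). The ATPases PSMC1 (1.23) and PSMC5 (0.94) and the core subunits PSMB3 (0.99) and PSMA7 (0.90) were higher too. The count was 13 without RG166, 10 without RL24, 9 without RL27, 8 without RG208, 6 without RL671 and 5 without RG157 or RG604.

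The muscle ligases of wasting were not called. FBXO32 was 15.52, 15.54 and 15.43 in RL24, RL27 and RL671 and 15.25, 14.67, 15.46 and 14.92 in RG157, RG166, RG208 and RG604 (0.42 ± 0.20, limma adjusted p = 0.211). TRIM63 was 15.55, 15.87 and 15.21 against 15.11, 15.40, 15.52 and 15.81 in the same animals (0.08 ± 0.22, limma adjusted p = 0.837). The groups overlapped for both. With the array as a random block FBXO32 passed (limma adjusted p = 0.0467), and TRIM63 passed in 0 of 24 alternatives. Of 34 genes of atrophy and FOXO targets, 2 were higher and 2 lower, 5.88% each way and thus close to the share of all genes. EIF4EBP1, the translation repressor 4E-BP1, was 3.13-fold higher and the autophagy gene MAP1LC3B 1.47-fold higher, while TP53INP2 was 6.44-fold lower and ULK1 1.70-fold lower. TP53INP2 had a difference of -1.24 at time 0.

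CDKN1A had levels of 13.39, 14.61 and 14.34 in RL24, RL27 and RL671, against 10.45, 11.89, 11.98 and 11.98 in RG157, RG166, RG208 and RG604. RG157 was well below the other growth animals. The difference was 2.54 ± 0.48 (limma adjusted p = 0.0234) and kept its call with 4 of the 7 animals left out in turn, with an adjusted p of up to 0.0750 over all alternatives. Of 21 genes of cell cycle arrest and p53 targets, BTG1, an antiproliferative gene, was also higher (1.64) and CDKN2C lower (-1.15). The shares of this list were 9.52% higher and 4.76% lower, against 6.38% and 6.66% of all genes. Of 35 genes of cell division, 15 were lower (42.9%) and 2 higher (5.71%), against 6.66% and 6.38% of all genes. The median of this list was -0.50. The number lower was 3 to 15 with an animal left out and 2 to 22 over the other settings. TOP2A was 3.27-fold lower and CDCA3 2.18-fold. RRM2, KIF20A and UHRF1 were not well above background in any restricted channel. Their bounds in the main processing were 2.62-fold, 1.79-fold and 1.68-fold lower. Over the alternatives their smallest log2 differences were -1.10, -0.65 and -0.58. Like them, CCNA2, CCNB1, CCNB2, CDC20, CENPF, CEP55, DLGAP5, FOXM1, KIF4A and PBK were called lower without clear signal in any restricted channel. They were named after their values were seen. Among the 15 called lower, only TOP2A and CDCA3 were not of this kind, so most of that count rests on values near background. The 2 members higher, MCM2 and MCM7 (0.53 and 0.56), belong to the replicative helicase and were named after their values were seen.

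Of 25 genes of insulin and IGF signalling, 3 were higher and 2 lower, 12.0% and 8.0% against 6.38% and 6.66% of all genes, and at most 2 and 1 with an animal left out. IGF1R, the IGF receptor, was 2.06-fold higher, PIK3R1 1.86-fold and TSC2 1.62-fold, while the binding proteins IGFBP6 (-1.47) and IGFBP5 (-1.45) were lower. The 2 probes of IGFBP5 disagreed, at -0.51 and -2.39. IGF1 did not differ beyond its error (-0.15 ± 0.20, limma adjusted p = 0.654). MSTN, myostatin, the brake on muscle growth, was 7.42, 8.14 and 7.84 in RL24, RL27 and RL671 and 9.47, 9.49, 8.77 and 8.03 in RG157, RG166, RG208 and RG604, so RG604 lay within the restricted animals (-1.14 ± 0.40, limma adjusted p = 0.108). MSTN was called lower without RG604 (limma adjusted p = 0.0399) and with the array as a block (0.0252 on log ratios and 0.00604 on separate channels). Of 29 genes of myostatin, activin and TGF beta signalling, FSTL1 (-1.67), TGFBR2 (-0.87) and LTBP3 (-0.71) were lower and CCN1 (1.89) higher. The shares were 10.3% lower and 3.45% higher, against 6.66% and 6.38% of all genes. At most 1 each way was called with an animal left out.

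Of 21 myogenic regulators and satellite cell genes, MYF6 (0.81), a factor of mature fibres, and CDH15 (0.96), M-cadherin, were higher. HEYL (-2.67) and NOTCH3 (-1.39), of the Notch pathway, were lower. These calls are 9.52% of the list each way, against 6.38% and 6.66% of all genes. PAX7 was not among the genes tested. At the neuromuscular endplate the acetylcholine receptor subunits went different ways. CHRND was 10.61, 11.33 and 10.70 in RL24, RL27 and RL671 against 8.32, 8.32, 8.39 and 7.85 in RG157, RG166, RG208 and RG604, a difference of 2.66 ± 0.23 (limma adjusted p = 0.00601). CHRNB1 was higher by a log2 difference of 0.68 and CHRNE, the adult epsilon subunit, lower by -1.18. Of 23 genes of calcium release and reuptake, HRC was higher (0.85) and CAMK2D (-0.83) and SRL (-0.66) lower. The shares, 4.35% higher and 8.70% lower, were close to the 6.38% and 6.66% of all genes.

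Of 71 ribosomal protein genes 62 had a positive difference, with a median of 0.30. For 23 of the 71 all restricted animals were above all growth animals, set against 18.1% of all genes. Past the threshold 4 were higher and 2 lower, shares of 5.63% and 2.82% against 6.38% and 6.66% of all genes. The number higher depended on the setting: it was 16 with channels centred on their medians, where the median was 0.55, 23 with quantile normalization, 13 and 32 with the array as a block on log ratios and on separate channels, and 28 with the deposited log ratio and the block. RPL27A (0.92), RPL37A (0.73) and RPS23 (0.59) were higher, and RPS27A (-1.28) and RPL7 (-0.67) lower. Ribosomal protein genes have many near-identical copies, and their single values are uncertain for that reason. Of 33 heat shock proteins and chaperones, 3 were lower and 3 higher, 9.09% each way against 6.66% and 6.38% of all genes. DNAJA4 (-2.51) and HSPA8 (-1.41) were lower, and UNC45B (0.98), a chaperone of myosin, HSP90AB1 (0.72) and DNAJB2 (0.58) were higher. HSPA8 had a difference of -1.35 at time 0. Of 30 genes of amino acid stress and metabolism, 7 were lower and 0 higher, and 3 to 7 were lower with an animal left out. ATF4, the transcription factor of the amino acid response, was 8.19, 8.61 and 8.06 in RL24, RL27 and RL671 against 9.64, 9.98, 9.78 and 9.94 in RG157, RG166, RG208 and RG604 (-1.55 ± 0.17, limma adjusted p = 0.00748). ODC1 (-1.65), PSAT1 (-1.15), GOT1 (-1.10) and ASNS (-1.04), asparagine synthetase, were lower with it.

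Of 12 glucocorticoid response genes, CEBPD (3.67-fold) and FKBP5 (1.90-fold) were higher, 16.7% against 6.38% of all genes. At time 0 CEBPD and FKBP5 had differences of -0.98 and -1.42. Among 15 clock genes RORA was higher (1.31) and HLF (-1.13) and BHLHE41 (-0.92) lower. The shares were 6.67% higher and 13.3% lower, against 6.38% and 6.66% of all genes. The 3 probes of HLF gave -1.64, -1.38 and -0.37, the last with an adjusted p of 0.0565 by limma. In the immune lists BOLA-DMB (-1.31) and CD74 (-0.95) of 18 antigen presentation genes were lower, 11.1% against 6.66% of all genes. USP18 (0.55) of 13 interferon genes was higher, 7.69% against 6.38% of all genes.

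Other cell types of the biopsy were followed by their markers. Of 16 adipocyte markers, 4 were lower (2 to 9 with an animal left out) and 0 higher, namely GPD1, CA3, AQP7 and CEBPA. The share lower was 25.0%, against 6.66% of all genes. Muscle fibres also express CA3 and GPD1. No probe of CEBPA passed alone (-0.76 and -0.32, limma adjusted p = 0.132 and 0.268). With an animal left out, CEBPA was called in 0 of 7 fits and AQP7 in 2 of 7. The summed level was 15.91 to 16.27 in restricted and 17.19 to 17.61 in growth cattle. This sum includes CA3 and GPD1 and gives bright genes the most weight, so it is not a measure of adipocytes alone. The defining genes ADIPOQ (-1.49 ± 0.55, limma adjusted p = 0.121) and FABP4 (-0.99 ± 0.65, limma adjusted p = 0.345) were not called, and ADIPOQ was well above background in 3 of 4 channels of each diet. Without RL24 both were called lower (limma adjusted p = 0.0162 each), as they were with the array as a block on log ratios (0.00676 for ADIPOQ and 0.0445 for FABP4). Of 15 endothelial and mural markers, 3 were lower (ACTA2, PECAM1 and KDR, log2 differences of -0.80, -0.74 and -0.71), 20.0% against 6.66% of all genes. Their list had summed levels of 15.06 to 15.34 and 15.48 to 16.02. Of 14 macrophage and lymphocyte markers and 5 red cell markers, 0 were called in either direction by limma, with 13.0% called over all genes, and 3 and 0 had an unadjusted p under 0.05. Their summed levels were 12.44 to 13.35 and 9.54 to 10.19 in restricted against 12.95 to 13.59 and 10.02 to 11.05 in growth cattle. PTPRC, the leukocyte marker CD45, had -0.67 ± 0.24 and was called lower with the array as a block (limma adjusted p = 0.0157 on log ratios and 0.0057 on separate channels), and HBA and HBB, the globins, -0.53 ± 0.29 and -0.51 ± 0.36. Of 6 Schwann cell markers S100B (-0.85) was lower, 16.7% against 6.66% of all genes, with summed levels of 12.82 to 13.47 and 13.36 to 14.16. The part of these cells in the differences above was not tested.

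Single genes outside these classes were among the largest differences too. TFRC, the transferrin receptor, was 8.85, 8.28 and 8.17 in RL24, RL27 and RL671 against 12.18, 11.89, 11.99 and 12.53 in RG157, RG166, RG208 and RG604, a difference of -3.71 ± 0.23 (limma adjusted p = 0.00231), with -4.58 and -2.84 by its 2 probes. METTL21E, a methyltransferase of muscle, was 13.2-fold lower and CST6, an inhibitor of cysteine proteases, 9.43-fold. OR5A1, an olfactory receptor gene, had a difference of -3.44 and was well above background in 1 of 4 restricted channels. Beside CHRND and CDKN1A, the rises among genes with a RefSeq symbol were led by GCGR, the glucagon receptor, with 12.16, 12.90 and 12.20 in RL24, RL27 and RL671 against 8.95, 9.43, 9.60 and 9.57 in RG157, RG166, RG208 and RG604 (3.03 ± 0.25, limma adjusted p = 0.00601). DDO, D-aspartate oxidase, was 8.16-fold higher. TSPAN7 (2.24), RILPL1 (2.22), DYNLRB2 (2.18), NOD2, a sensor of bacterial peptidoglycan (2.17), FANCD2, of DNA crosslink repair (2.17) and APCDD1, a Wnt inhibitor (2.16), completed the 10 largest rises.

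How the groups stood before was described at time 0, when the same 7 animals were measured, each with the other dye. No gene was called between the diets then by limma (0 of 14708, with 2257 at an unadjusted p under 0.05 against 4589 at time 1). The 2257 are more than the share of 0.05 that this threshold passes on average where no gene differs. With 3 and 4 animals, the lack of calls does not show that the groups were alike at time 0. The change from time 0 to time 1 was tested in each animal. The change is signed, so larger means more positive and smaller means more negative, whatever its size. It was larger in the restricted cattle for 303 genes (2.06%) and smaller for 345 (2.35%). Of the 1918 genes called at time 1, 1864 had a difference in change of the same sign, and 198 of those higher and 268 of those lower passed this test as well. The change contains the same time 1 values that gave these calls, so this overlap is not independent of them. For ACTA1 the log2 difference was -0.66 at time 0, and the difference in change was -5.39 ± 0.26 (limma adjusted p = 0.00152). For MYL3 they were -0.05 and -3.93 ± 0.19 (limma adjusted p = 0.00152). CDKN1A was lower in the restricted cattle at time 0 by -1.58, and its difference in change was 4.11 ± 0.55 (limma adjusted p = 0.0243).

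The classes differed in how many members passed the test of change. For glycolysis 8 of 22 did so in the falling direction, and for the fast fibre list 5 of 13. Of the fibrillar collagens COL3A1 passed (-4.98 ± 0.64, limma adjusted p = 0.0237) and COL1A1 did not (-4.03 ± 1.19, limma adjusted p = 0.0976). COL1A1 ranged at time 0 from 13.77 to 15.75 in restricted and from 13.92 to 16.85 in growth cattle, a wider spread than at time 1. Of the other matrix lists 1 of 17 basement membrane genes and 1 of 28 proteoglycans and glycoproteins passed in the falling direction, and 0 of 22 folding and crosslinking genes and 0 of 19 proteases and inhibitors did, with 1 of those 22 passing in the rising direction. Of the proteasome 6 of 37 passed in the rising direction. With any of the 7 animals left out, the genes called for change were at most 86 larger and 115 smaller, fewer than with all 7. The counts were 9 and 12 without RL24, 56 and 107 without RL27, 86 and 115 without RL671, 4 and 3 without RG157, 5 and 11 without RG166, 3 and 3 without RG208 and 21 and 44 without RG604.

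**Figure D5:**
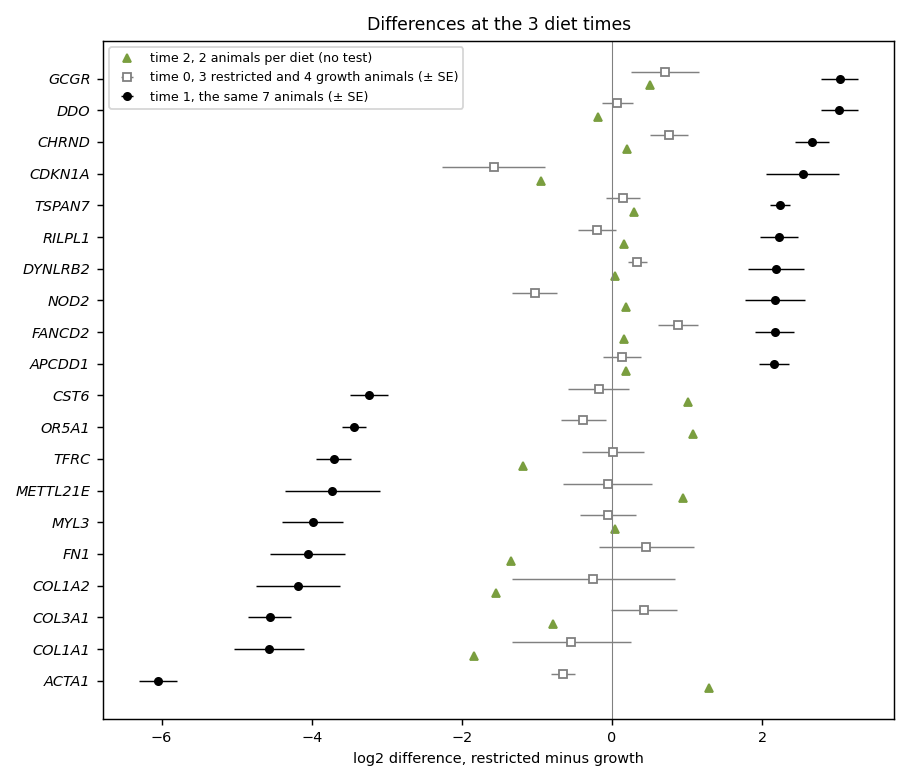
Log2 difference between restricted and growth cattle at time 0 (grey squares, ± SE), time 1 (black points, ± SE) and time 2 (green triangles, 2 animals per diet, no error) for the 10 largest falls and rises of time 1. ACTA1 stood at -0.66, -6.05 and 1.29 at times 0, 1 and 2, and COL1A1 at -0.54, -4.57 and -1.84.

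At time 2 only 2 animals of each diet (RL24, RL27, RG166 and RG208) were measured, and the values are given as a description. Re-alimentation was part of the experiment by the paper's account, and the labels do not say whether time 2 fell within it. ACTA1 was 17.22 and 17.42 in the restricted and 15.53 and 16.55 in the growth animals, so the restricted animals were the higher ones. The glycolysis median was 0.25 and that of the proteasome -0.01. The fibrillar collagens still had a median of -1.17, and COL1A1 was 12.48 and 13.71 in the restricted against 15.71 and 14.17 in the growth animals. CDKN1A was 11.79 and 11.55 against 12.94 and 12.29.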

How the data were processed

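Total RNA of snap-frozen biopsies was labelled and hybridised on 2-colour Agilent arrays by the authors, who deposited for each spot the mean and local background intensity of each channel with the flags of Agilent Feature Extraction 9.5.1 (per the labels). A log10 ratio of the dyes (Cy5 to Cy3), also deposited, served in an alternative only. The genome build of the probes is not given in the sources used here.

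Intensities were corrected by normexp (offset 50) and normalized by loess within and Aquantile between all 48 arrays in limma 3.58.1 (R 4.3.3). Control and outlier spots were left out. Probes well above background in at least 24 of 96 channels were kept (15822 of 21475) and averaged per gene. Gene names came from RefSeq where they matched, and 4968 probes kept the name in the files. The fit was lmFit and eBayes on 7 animals, two-sided, with diet and dye as terms, leaving 4 residual degrees of freedom. The number of arrays limits the precision, and the labels do not say how the animals of a group were kept. In simulated data, where 200 of the 14708 genes differed 1 log2 unit between the diets, 79.0% of them were recovered at time 1 and 38.0% for the change from time 0. There were 10 and 3 false calls. The simulated noise was independent between animals, without the correlation of channels on an array, so these shares may not hold for the real data.

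The named genes are ACTA1, COL1A1 and CDKN1A, the 10 largest rises and falls with a RefSeq symbol, up to 5 members called per list (or that with the smallest p) and a set of defining genes; 1 gene so named is not reported here. The comparison, the 42 lists and the genes were chosen with earlier results of these data known. Lists were described by counts and medians and not tested. Alternatives covered background, signal, normalization, filter, dye, array as block, probes, variance moderation and each animal left out. Figures were drawn with matplotlib 3.10.9.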

Additional observations from a re-analysis of the deposited data

Results flagged for a closer look

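The difference between the diets was not the same at time 0 and time 1 for some genes, by the limma test of the change in each animal. The signed change in restricted cattle was larger (more positive) for 303 genes and smaller (more negative) for 345. Among the named genes the difference in change was -5.39 for ACTA1, -4.98 for COL3A1, -3.93 for MYL3, -3.72 for TFRC, -3.67 for METTL21E, -3.06 for CST6 and -3.05 for OR5A1. It was 4.11 for CDKN1A, 3.66 for KLHL40, 3.20 for NOD2, 2.96 for DDO, 2.90 for CCN1, 2.42 for RILPL1, 2.09 for TSPAN7, 2.03 for APCDD1, 1.90 for CHRND and 1.84 for DYNLRB2.

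Of the fibre genes it was -1.94 for MYL1, -1.59 for MYH1, -1.53 for MYBPC1, -1.39 for DLK1 and -1.38 for MYBPC2, and of the matrix genes -2.94 for LUM, -1.93 for COL15A1 and -1.74 for DPT. Of the metabolic genes it was -2.75 for PGK1, -2.57 for LDHA, -2.05 for PHKA1, -1.995 for CKMT2, -1.85 for FABP3, -1.83 for PKM, -1.73 for CKB, -1.69 for ENO3, -1.68 for AK1, -1.59 for CA3, -1.56 for PHKB, -1.47 for NDUFS1, -1.18 for NDUFB5, -1.15 for DLAT, -1.05 for UQCRFS1 and -0.78 for MDH2. Of the other genes it was -2.10 for BHLHE41, -2.05 for ATF4, -1.99 for RRM2, -1.95 for CDKN2C, -1.57 for NOTCH3, -1.36 for DNAJA4, -1.21 for CHRNE and -1.11 for HLF, and 1.05 for PSMD2, 1.03 for HSP90AB1, 0.98 for PSMC5 and 0.88 for TSC2.

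One growth animal stood apart from the other 3 by most of the range of the 4 (Dixon's test), a gap that chance gives in about 1 group in 20, for 9 of the 182 named genes tested. The gap as a share of the range was 0.94 for CDKN1A, 0.88 for CHRND, 0.90 for MYBPC2, 0.84 for TNNT3, 0.95 for COX6C, 0.92 for PSMC1, 0.85 for UHRF1, 0.99 for PSAT1 and 0.85 for HBB.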

How the results depend on the processing

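At time 1 the 939 higher and 979 lower genes became 1634 and 581 with channel medians, 2185 and 2150 with the deposited log ratio and a replicate block, 1919 and 2104 with the array as replicate block (a pairing on the array) and 3090 and 3290 with the array as a random replicate block over separate channels. The block fits count the 2 arrays of RL24 as separate, and they lost the call of 0 of the 172 named genes called and gained calls among the 10 others (PTPRC, ADIPOQ, MSTN, FABP4 and FBXO32, each in at least 1 block fit). Leaving out 1 animal gave 172 to 698 higher and 268 to 772 lower: 432 and 519 without RL27, 256 and 301 without RL671, 172 and 268 without RG157, 601 and 760 without RG166, 523 and 614 without RG208 and 186 and 288 without RG604. Of the 172 named genes, 66 to 139 stayed called then. The other settings for background, signal, normalization, filter, dye, probes, moderation and the array of RL24 stayed within 1.5 times the counts. For the change from time 0, the 303 larger and 345 smaller became 686 and 206 with channel medians, which raised the median over all genes from 0.00 to 0.17, and 3 to 86 and 3 to 115 with 1 animal left out. The sign turned for 2 uncalled genes, IGF1 (0.0135 without RL24, and -0.29 to 0.0135 with animals left out) and TRIM63 (-0.08 without RL27 and -0.0910 without RG157, -0.0910 to 0.26 with animals left out and up to 0.35 over all alternatives). Glycolysis kept a median between -1.35 and -0.91 and the proteasome between 0.39 and 0.70 under all 24 alternatives, and the cause of the changes in the counts was not tested.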
